A study of Cavia porcellus with 35 samples.

Results

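Metabotropic glutamate receptors are the G protein-coupled receptors for glutamate, the main excitatory transmitter of the cortex. GRM5 encodes mGlu5, a group I receptor that couples to Gq and phospholipase C and lies mainly on the postsynaptic side. GRM2 and GRM3 encode the group II receptors mGlu2 and mGlu3, which couple to Gi/o and reduce transmitter release from presynaptic endings, and mGlu3 is also found on glia. GRM4, GRM7 and GRM8 encode group III receptors, which are likewise presynaptic and Gi/o-coupled. The genes were taken by symbol from a list of 6 (GRM2, GRM3, GRM4, GRM5, GRM7 and GRM8), whatever their case, and all 6 are symbols in the RefSeq guinea pig annotation. GRM2, GRM3 and GRM5 were present in all 4 count tables, among 10949 symbols shared by the tables, and each passed the filter on low counts in every table. GRM4, GRM7 and GRM8 matched no row and were not analysed here.

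The animals were juvenile guinea pigs (Cavia porcellus) at postnatal day 40, whose pregnant ancestors were given either saline (control) or the synthetic glucocorticoid (sGC) betamethasone, in 3 courses at 1 mg/kg, in late gestation. F1 animals were exposed as fetuses, and F2 and F3 animals descended through the paternal line, from F1 and F2 males mated with females outside the experiment. There were 4 control and 4 sGC females in each of the F1, F2 and F3 generations and 5 control and 6 sGC F1 males, 35 animals with 1 library each, chosen by the authors on the amount and quality of RNA. RNA came from small punches of the medial prefrontal cortex (mPFC), which hold several cell types, so that fewer cells of a type and less RNA per cell cannot be told apart.

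Library totals ranged from 12819964 to 19551079 reads in females and from 25697953 to 31763585 reads in males. GRM2 was read 104 to 1408 times per library, GRM3 5947 to 17567 times and GRM5 682 to 2130 times. Levels are CPM, read counts scaled to the library total, normalized by the trimmed mean of M values (TMM) within a table. A difference was called when the false discovery rate (FDR) of edgeR's quasi-likelihood test, adjusted over all genes of the table, was under 0.05. One text field of the sample records names the paraventricular nucleus of the hypothalamus. Of 6 markers of that nucleus, 4 were tested in F1 and F2 females and F1 males and 3 in F3 females, and they summed to between 6.58 and 19.3 CPM per animal. Group means were between 0.715 and 1.17 CPM for AVP, between 1.29 and 3.63 CPM for OXT, up to 1.49 CPM for CRH and between 4.24 and 12.8 CPM for SIM1. The 6 neuronal markers summed to between 5811 and 10030 CPM in every animal.

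In F1 males, GRM2 and GRM5 were both lower in sGC animals than in controls. These were the only calls by the quasi-likelihood test among the 3 receptor genes in the 4 tables. In F1, F2 and F3 females, 0 of 3 receptor genes were called, with 1, 1 and 2 of them at an unadjusted p under 0.05. Both edgeR's likelihood ratio test and DESeq2 called 1 of 3 in F1 females, GRM2, and 0 of 3 in F2 and F3 females. Over all genes tested, 16.5% were called in F1 females, 0.278% in F2 females, 1.34% in F3 females and 9.22% in F1 males. At an unadjusted p under 0.05 by that test there were 3858 of 11268, 1789 of 11132 and 1973 of 11420 genes in F1, F2 and F3 females. The likelihood ratio test called 2100, 534 and 616 genes there, and DESeq2 called 2423, 471 and 632. Fold changes of GRM3 lay between 1.00 and 1.12 in the 4 tables, none of them called.

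**Figure D1:**
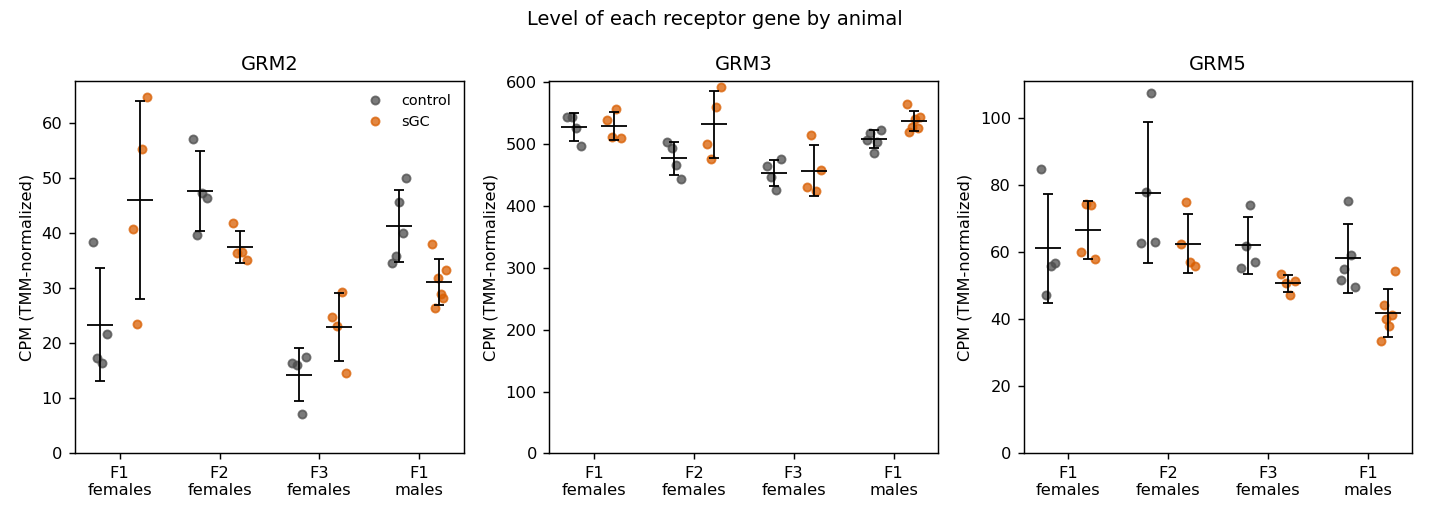
CPM of GRM2, GRM3 and GRM5 (vertical axes, each from 0, with its own scale) in each of the 35 animals, by table and treatment. Grey points are controls, orange points are sGC animals, and the black bars give the mean ± SD. Mean GRM2 was higher in sGC animals in F1 and F3 females and lower in F2 females and F1 males, GRM3 stayed between 424 and 593 CPM in every animal, and GRM5 was lower in every F3 female sGC animal than in every F3 female control.

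GRM2 varied most between tables. In F1 female controls, GRM2 was at 38.4, 17.3, 16.4 and 21.7 CPM in animals 1 to 4. In F1 female sGC animals, it was at 40.7, 23.6, 55.3 and 64.8 CPM. All but 1 of the sGC animals lay above every control, and the remaining animal lay above all controls but animal 1. The mean was 46.1 ± 18.0 CPM (SD, n = 4) against 23.4 ± 10.2 (SD, n = 4), with a log2 fold change of 0.97 (SE 0.35), or 1.96-fold with a 95% interval from 1.13 to 3.40. This was not called by the quasi-likelihood test (FDR = 0.0884). It was called by the likelihood ratio test (FDR = 0.0370), by DESeq2 (FDR = 0.0213) and in a single fit of all 8 conditions (FDR = 0.00489). The study, which used the likelihood ratio test, lists GRM2 as higher in F1 sGC females and lower in F1 sGC males.

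Leaving out 1 animal changed the call of GRM2 in F1 females in 2 of 8 cases. Without control 1 the log2 fold change of GRM2 was 1.34 (FDR = 0.0265), and without sGC animal 2 it was 1.19 (FDR = 0.0408). In the other 6 cases it was not called, with FDR values up to 0.195. Of 8 striatal neuron markers tested in F1 females, 5 fell, with summed levels of 593.8 to 2710 CPM in controls and 249.3 to 627.6 CPM in sGC animals. Among the defining markers, PPP1R1B averaged 781 CPM in control and 159 CPM in sGC females, and PENK 298 and 57.7 CPM. Without the controls highest in these markers, 1 and 4, the log2 fold change of GRM2 was 1.48 (FDR = 0.0423), larger than with all animals. These were also the controls highest in GRM2, at 38.4 and 21.7 CPM. Leaving them out raises the fold change whatever their striatal content, and the part of striatal cells was not tested. In F1 females 5 of 6 neuronal markers rose, and 4 of 6 microglial and 4 of 8 astrocyte markers fell, and their part in the GRM2 difference was not tested.

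In F2 females, GRM2 was at 57.2, 39.6, 47.3 and 46.4 CPM in controls and at 41.9, 36.5, 36.6 and 35.2 CPM in sGC animals. All sGC animals but the first lay below every control. This came to a log2 fold change of -0.34 (SE 0.11, 95% interval -0.58 to -0.11), which was not called (FDR = 0.150). Summed levels of 6 upper-layer excitatory neuron markers were 613.9 to 788.4 CPM in these controls and 440.3 to 589.7 CPM in the sGC animals, which do not overlap. Of this list CALB1, RASGRF2 and RORB had the smallest FDR values, from 0.0522 to 0.0568, with log2 fold changes of -1.05, -0.93 and -0.72, and were not called. Sums of 7 deep-layer excitatory neuron markers did not overlap either, at 307 to 369 CPM in controls and 375.5 to 546.5 CPM in sGC animals. Of these markers 1 was called higher. Sums of 6 oligodendrocyte precursor markers were 622.2 to 750.3 and 756.4 to 1016 CPM, also without overlap. Oligodendrocyte markers had a median log2 fold change of 1.04, with 0 of 7 called. The part of all these markers in the F2 values of GRM2 and GRM5 was not tested.

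In F3 females, GRM2 was at 16.4, 16.1, 7.10 and 17.5 CPM in controls and at 24.9, 23.1, 29.4 and 14.7 CPM in sGC animals. All sGC animals but animal 4 lay above every control, and that animal lay among the controls. GRM2 had a log2 fold change of 0.69 (SE 0.27, 95% interval 0.07 to 1.30) that was not called (FDR = 0.240). Control 3, at 7.10 CPM, stood apart from the other controls, and the log2 fold change without it was 0.47. The 6 neuronal markers summed to 5811 to 7610 CPM in F3 controls and 8763 to 9481 CPM in sGC animals, which do not overlap, and 2 of them were called higher. The 8 striatal markers had a median log2 fold change of -0.80 there, with sums of 333.5 to 1019 and 208.2 to 474.8 CPM. The part of these markers in the F3 values of GRM2 and GRM5 was not tested.

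In F1 males, GRM2 was at 34.7, 35.9, 45.7, 40.0 and 50.1 CPM in the 5 controls. In the 6 sGC males the lowest value was 26.5, the median 30.4 and the highest 38.2 CPM. The sGC male at 38.2 CPM lay above controls 1 and 2 and below controls 3, 4 and 5, and the other sGC males lay below every control. The mean was 31.2 ± 4.23 CPM (SD, n = 6) against 41.3 ± 6.56 (SD, n = 5). The log2 fold change was -0.40 (SE 0.11, 95% interval -0.64 to -0.17), and the decrease was called (FDR = 0.0360).

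The call of GRM2 in F1 males was close to the threshold. It was lost without control 3, 4 or 5 or without sGC animal 2, 3, 4 or 5, with FDR values from 0.0591 to 0.0875 and log2 fold changes from -0.42 to -0.33. It was also lost in a single fit of all 8 conditions (FDR = 0.260).

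**Figure D2:**
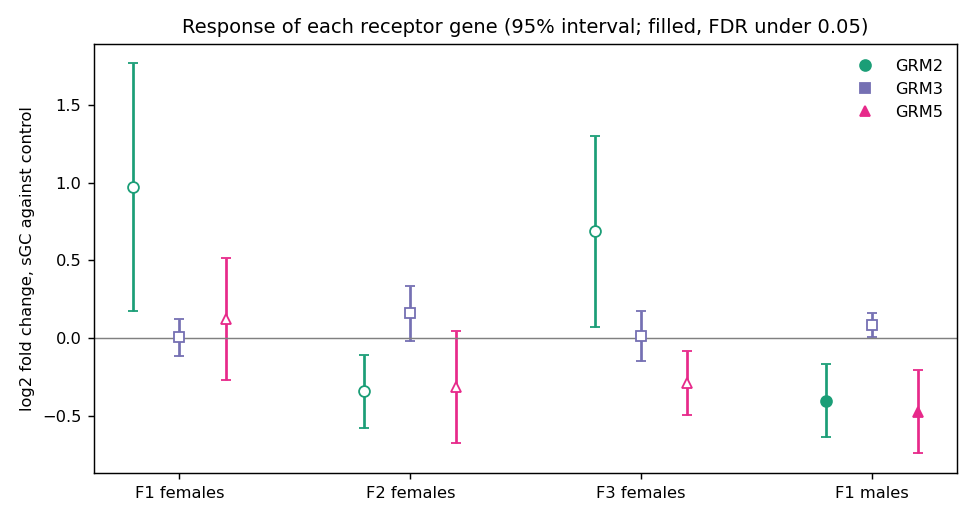
Log2 fold change of sGC against control animals (vertical axis) for GRM2 (circles), GRM3 (squares) and GRM5 (triangles) in the 4 tables, with 95% intervals from the quasi-likelihood fit. Filled symbols mark an FDR under 0.05, which only GRM2 (-0.40) and GRM5 (-0.48) in F1 males reached, and the GRM2 estimates lie above 0 in F1 and F3 females and below 0 in F2 females and F1 males.

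The response of GRM2 to sGC was compared between tables by the interaction of table and treatment, for 4 pairs of tables. F1 females and F1 males differed by 1.38 on the log2 scale, with the lower value in males (SE 0.34, 95% interval 0.66 to 2.10, FDR = 0.00574). Over all genes tested, 31.7% differed in response between F1 females and F1 males, and among the receptor genes GRM2 and GRM5 did. The difference in GRM2 stayed under the threshold when any of the 19 animals was left out, with a highest FDR of 0.0153. F1 and F2 females differed in the response of GRM2 by 1.32, with the lower value in F2 (SE 0.39, 95% interval 0.49 to 2.14, FDR = 0.0358), in a comparison that called 13.8% of all genes. That call was lost in 10 of 16 fits that each left out 1 animal, without F1 control 2, 3 or 4, F1 sGC animal 3 or 4, F2 control 1, 3 or 4, or F2 sGC animal 2 or 4, with FDR values up to 0.0694.

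The response of GRM2 in F3 females was not shown to differ from that in the other female generations. It exceeded that in F2 females by 1.03 (95% interval 0.39 to 1.67, FDR = 0.229) and fell short of that in F1 females by 0.30 (95% interval from 0.73 above to 1.34 below, FDR = 0.804). That second difference, F3 minus F1, ran from -0.65 without F1 control 1 to -0.08 without F1 sGC animal 4, and also moved by more than 1.5 times without F1 control 2 or 3, F1 sGC animal 2 or 3, F3 control 3 or 4, or F3 sGC animal 4. These comparisons called 0.018% and 0.0981% of all genes, and 0 of 3 receptor genes in each by the quasi-likelihood test, the likelihood ratio test and DESeq2. At an unadjusted p under 0.05 the quasi-likelihood counts were 1 and 0. The pairs share the F1 females or the F2 females. Counts were deposited in a separate table for each group, and the males were sequenced more deeply. Column names number the female libraries in 1 series, spread over the 3 generations, and the male libraries in another. What these series stand for is not given. Sex and table cannot be told apart between F1 females and F1 males, nor generation and table between the female groups.

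Levels of the receptor genes were set side by side across tables with 1 TMM scaling of all 35 animals, as a description without a test. In controls, GRM2 was highest in F2 females at 49.7 ± 7.61 CPM (SD, n = 4), then in F1 males at 43.6 ± 6.90 (SD, n = 5), in F1 females at 24.6 ± 10.9 (SD, n = 4) and in F3 females at 13.3 ± 4.52 (SD, n = 4). The ranges of F2 females and F1 males overlapped, as did those of F1 males and F1 females, while F1 and F3 females did not overlap, with a lowest value of 17.1 in F1 and a highest of 16.2 in F3. The highest control mean was 3.74 times the lowest for GRM2, against 1.31 times for GRM3 and 1.41 times for GRM5. Among sGC animals, the ratio was 2.24 for GRM2. GRM2 was higher in sGC than in control animals in the tables with the lowest control levels and lower in those with the highest control levels. The control mean is part of each of these differences, so spread between the few controls can by itself give such an order. Whether the response depends on the control level was not tested.

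Upper-layer excitatory neuron markers followed the same order over the control groups. The 5 markers present in all tables summed to 694 CPM in F2 females, 626 in F1 males, 521 in F1 females and 331 in F3 females on that scaling. In F1 females, sGC animals had a mean of 648 CPM for these markers, above their controls. The ranges overlapped there, at 335 to 758 CPM in controls and 426 to 820 CPM in sGC animals. Of the 6 upper-layer markers tested in F1 females, 0 were called higher and 1 was called lower, so that the sum hides an opposite change. In F2 females and F1 males the sGC means of the marker sum were 519 and 513 CPM, below their controls. In F3 females the mean was 317 CPM in sGC animals, slightly below their controls, where GRM2 was higher. After the mean of each treatment group was removed, GRM2 and the upper-layer markers tested in each table had r = 0.541 and rho = 0.508 over the 35 animals, and r = 0.336 without the 2 animals farthest from the median of the marker sum. The points share library, depth and scaling, and the part of these markers in the GRM2 levels was not tested.

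GRM5, the group I receptor gene, was lower on average in sGC animals in every table but that of F1 females. In F1 males, GRM5 was at 51.8, 54.9, 75.2, 59.0 and 49.6 CPM in controls. In the sGC males the lowest value was 33.3, the median 40.5 and the highest 54.3 CPM. All sGC males but 1 lay below every control, and that animal lay above controls 1 and 5. The mean was 41.8 ± 7.13 CPM (SD, n = 6) against 58.1 ± 10.2 (SD, n = 5), with a log2 fold change of -0.48 (SE 0.12, 95% interval -0.74 to -0.21), and the decrease was called (FDR = 0.0302). It was lost without control 3 or 4 or without sGC animal 1, 3, 4 or 5, with FDR values from 0.0613 to 0.0736, and the log2 fold change without control 3, the highest animal, was -0.36.

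Oligodendrocyte markers had a median log2 fold change opposite in sign to that of GRM5 in every table. It was -0.71, 1.04 and 0.34 in F1, F2 and F3 females and 0.96 in F1 males. Markers of this list were called only in F1 males. All 7 tested rose there, and their summed level was 3537 to 6719 CPM in controls and 7550 to 12910 CPM in sGC males, which do not overlap. Of 6 markers of oligodendrocyte precursors, 4 rose. Over the 35 animals, with treatment group means removed, GRM5 and the oligodendrocyte markers had r = -0.607 and rho = -0.583, and r = -0.483 without the 2 farthest animals. The same values were -0.599, -0.579 and -0.436 for the precursor markers. GRM2 had weaker values against both lists, r = -0.349 and r = -0.379. GRM5 also had r = 0.453 and rho = 0.377 with the upper-layer markers, r = 0.460 without the 2 farthest animals, and r = 0.407 and rho = 0.468 with the hypothalamic list, r = 0.359 without them. In F1 males the upper-layer sums were 482.8 to 829.8 CPM in controls and 473.8 to 533.5 CPM in sGC animals, and 2 of 7 interneuron markers fell, with sums of 649.1 to 803.9 and 600.6 to 741.4 CPM. In all, 33 correlations of a receptor gene with a marker list were computed, and the part of these cell types in the lower GRM2 and GRM5 of F1 males was not tested.

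**Figure D3:**
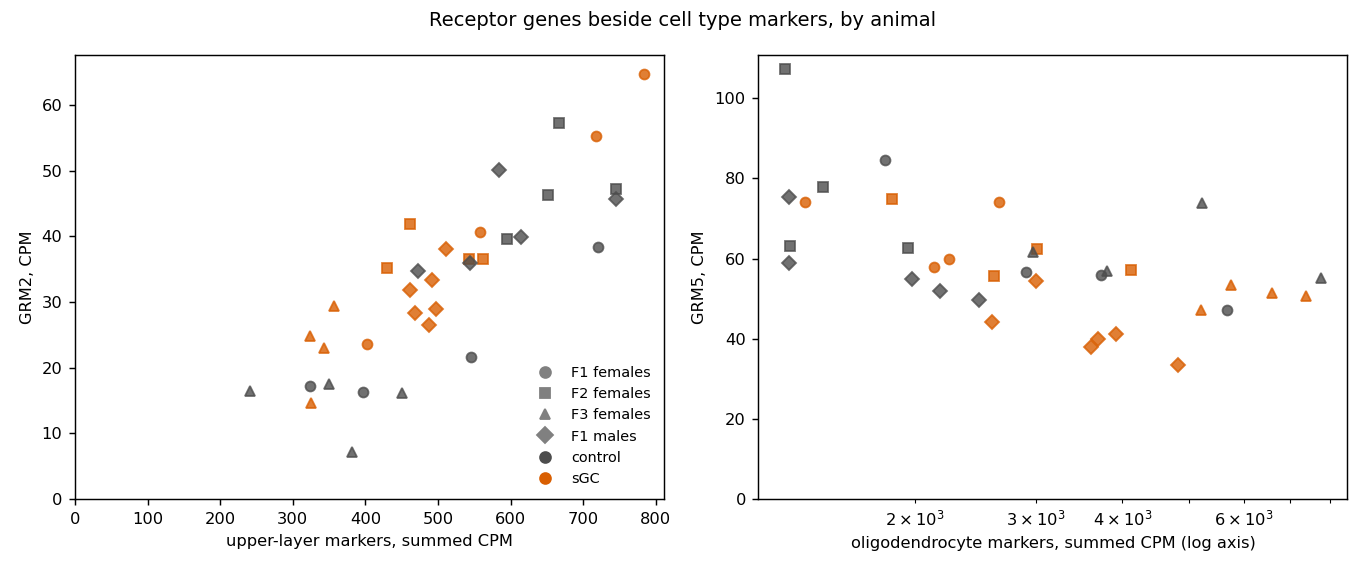
CPM per animal of GRM2 against the summed CPM of 5 upper-layer excitatory neuron markers (left) and of GRM5 against the summed CPM of 6 oligodendrocyte markers on a log axis (right), with symbols for the table and colours for the treatment. Only markers present in all 4 tables were summed, each table was scaled separately, GRM2 was highest where the upper-layer sum was highest, and GRM5 was lowest, at 33.3 CPM, in the sGC male with the most oligodendrocyte marker signal among the males.

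In F3 females, GRM5 was at 55.2, 61.7, 74.0 and 56.9 CPM in controls and at 53.4, 50.6, 47.2 and 51.3 CPM in sGC animals. Every sGC animal lay below every control, the only receptor gene and table without overlap. Over all genes, the groups did not overlap for 23.2% in F1 females, 8.09% in F2 females, 10.3% in F3 females and 6.26% in F1 males. GRM5 had a log2 fold change of -0.29 (SE 0.09, 95% interval -0.49 to -0.08) that was not called (FDR = 0.148). The gap between the groups was small, 53.4 against 55.2 CPM, and without control 3, the highest animal, the log2 fold change was -0.19 (FDR = 0.158). The neuronal marker sums did not overlap between these groups either.

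In F2 females, GRM5 was at 62.6, 77.9, 107 and 63.1 CPM in controls and at 62.4, 74.8, 57.1 and 55.7 CPM in sGC animals. Control 3 was far above the other animals, and the groups overlapped in part. The log2 fold change was -0.31 (SE 0.16, 95% interval -0.67 to 0.05, FDR = 0.374), and without control 3 it was -0.12. In F1 females, GRM5 was at 84.6, 47.2, 55.9 and 56.6 CPM in controls and at 60.0, 74.1, 74.0 and 58.0 CPM in sGC animals. Control 1 was the highest of the 8 animals and the other controls were the lowest, so that the sGC values lay between. The log2 fold change was 0.12 (SE 0.17, 95% interval -0.27 to 0.52, FDR = 0.649), and without control 1 it was 0.34 (FDR = 0.0719). It was 0.02 without control 2 and 0.07 without sGC animal 2 or without sGC animal 3.

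The response of GRM5 differed between F1 females and F1 males by 0.60 on the log2 scale, with the lower value in males (SE 0.23, 95% interval 0.13 to 1.08, FDR = 0.0490). This was just under the threshold. It was lost with upper-quartile normalization (FDR = 0.0614) and in 14 of 19 fits that left out 1 animal, with FDR values up to 0.111 (without F1 female control 2). It was retained only without F1 female control 1 or sGC animal 4, or without F1 male control 1 or 5 or sGC animal 6. Between female generations, the response of GRM5 was lower by 0.44 in F2 than in F1 (95% interval from 0.12 above to 1.00 below, FDR = 0.274), a difference of F2 minus F1 that was -0.25 without F2 control 3 and -0.71 without F1 controls 1 and 4 (FDR = 0.0670). It was lower by 0.43 in F3 than in F1 (95% interval from 0.01 above to 0.87 below, FDR = 0.331). F2 and F3 females differed by 0.03 (95% interval -0.41 to 0.46, FDR = 0.976). Without F1 female controls 1 and 4, the difference between F1 and F3 females was 0.67, lower in F3, with FDR = 0.0462. Those animals were the highest in GRM5 among F1 female controls, at 84.6 and 56.6 CPM. Leaving them out by itself raises the F1 fold change that enters these differences.

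GRM3 had the log2 fold change nearest to 0 of the receptor genes in every table. In F1 females, GRM3 was at 545, 543, 526 and 497 CPM in controls and at 539, 511, 556 and 510 CPM in sGC animals. The groups overlapped almost wholly, and the log2 fold change was 0.00 (SE 0.05, 95% interval -0.12 to 0.12, FDR = 0.969). In F3 females, GRM3 was at 465, 447, 426 and 475 CPM in controls and at 431, 515, 424 and 458 CPM in sGC animals. These overlapped as well, with a log2 fold change of 0.01 (SE 0.07, 95% interval -0.15 to 0.17, FDR = 0.952).

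In F2 females, GRM3 was at 504, 494, 466 and 444 CPM in controls and at 500, 475, 560 and 593 CPM in sGC animals. The last 2 sGC animals lay above every control and the others among them. The log2 fold change was 0.16 (SE 0.08, 95% interval -0.02 to 0.33, FDR = 0.359), and 0.10 without sGC animal 4, the highest. In F1 males, GRM3 was at 506, 518, 486, 504 and 524 CPM in controls, and in sGC males the lowest value was 520, the median 534 and the highest 566 CPM. All sGC males but 1 lay above every control, yet the log2 fold change was 0.08 (SE 0.04, 95% interval 0.01 to 0.16) and was not called (FDR = 0.170). No pair of tables was called for a difference in the GRM3 response by the quasi-likelihood test, with FDR values from 0.326 to 0.969.

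The coefficient of variation between animals of a group was lowest for GRM3 in most groups, with ranges that overlapped between the receptor genes. It was 2.85% to 10.2% for GRM3, 5.07% to 26.9% for GRM5 and 7.89% to 43.7% for GRM2. In F2 females and F1 males, GRM5 varied more between controls than GRM2 did, at 26.9% against 15.2% and 17.6% against 15.9%. The same held between sGC animals, at 13.9% against 7.89% and 17.1% against 13.6%. GRM3 varied more than GRM2 in F2 female sGC animals, at 10.2% against 7.89%. It varied more than GRM5 in F3 female sGC animals, at 9.03% against 5.07%. The ratio of GRM2 to GRM3 reads, which needs no scaling between libraries, had a median of 3.77 GRM2 reads per 100 GRM3 reads in F1 female controls and 8.76 in sGC animals. It was 10.3 and 7.10 in F2 females, 3.57 and 5.13 in F3 females, and 7.94 and 5.71 in F1 males. These ratios moved in the same direction as GRM2 in each table, which follows from the small changes of GRM3 and is no separate finding. Their ranges overlapped between control and sGC animals in every female table, at 3.11 to 7.05 and 4.61 to 12.7 in F1. They were 8.03 to 11.4 and 5.93 to 8.38 in F2, and 1.67 to 3.68 and 3.21 to 6.92 in F3. For GRM5 the median in F1 males was 10.6 reads per 100 GRM3 reads in controls and 7.69 in sGC animals.

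The receptor genes had weak correlations with each other over animals. With treatment group means removed, r over the 35 animals was 0.164 for GRM2 with GRM3, -0.0283 for GRM2 with GRM5 and -0.274 for GRM3 with GRM5, with rho of 0.134, -0.102 and -0.327.

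Genes whose log2 CPM, centred on the table mean, was most like that of a receptor gene were sought among 10722 genes over the 35 animals, as a description. For GRM2 these were SLC30A3 (r = 0.915, rho = 0.865), the zinc transporter of glutamatergic synaptic vesicles, and OLFM1 (r = 0.863, rho = 0.795), a secreted olfactomedin protein of neurons. SLC30A3 had the same signs of change as GRM2 in the 4 tables, with log2 fold changes of 1.48, -0.32, 0.68 and -0.32 in F1, F2 and F3 females and F1 males, none of them called (FDR from 0.0654 to 0.207). Treatment differences were left in the values searched, so a gene chosen for a high r tends to share these signs. The shared signs are therefore no separate finding. OLFM1 rose in F1 females, with a log2 fold change of 0.69 (FDR = 0.0194). Within tables, r of GRM2 with SLC30A3 was 0.985, 0.661, 0.957 and 0.828, and r was 0.921 without the 2 farthest animals.

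**Figure D4:**
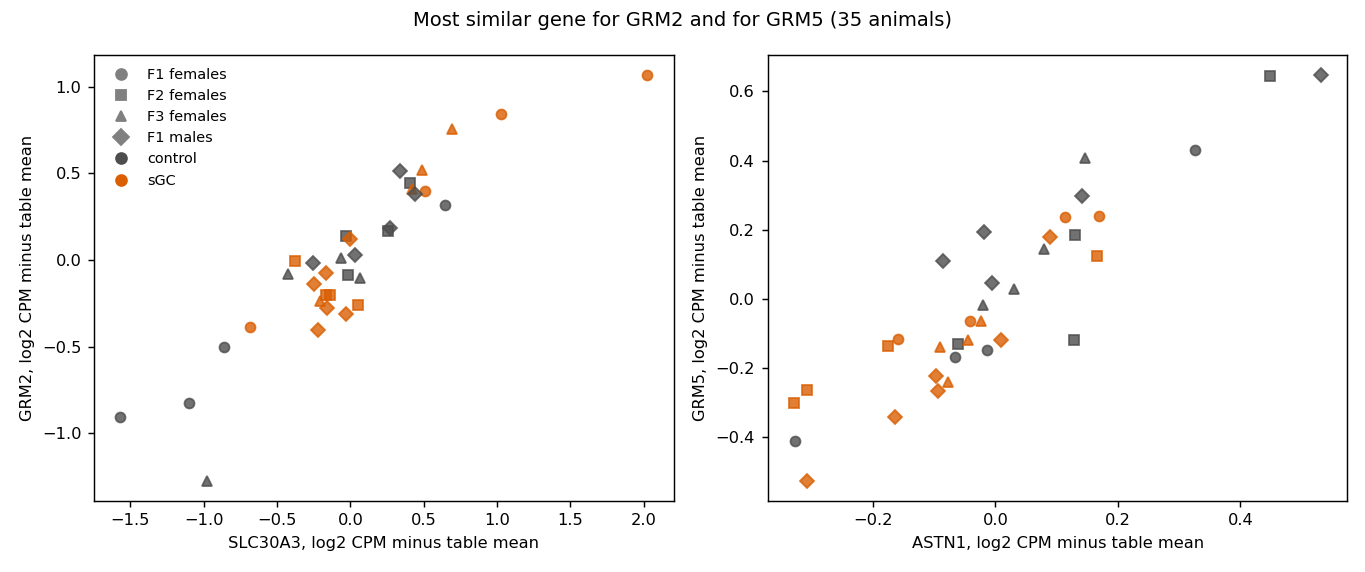
Log2 CPM minus the table mean in each of the 35 animals for GRM2 against SLC30A3 (left) and GRM5 against ASTN1 (right), with symbols for the table and colours for the treatment. GRM2 and SLC30A3 lie along a line (r = 0.915), with F1 female sGC and control animals at its 2 ends together with 1 F3 female control, and GRM5 and ASTN1 do so too (r = 0.909).

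For GRM5 the most similar genes were ASTN1 (r = 0.909, rho = 0.880), an adhesion protein of neurons that migrate along glia, and LRRC7 (r = 0.891, rho = 0.817), a postsynaptic density protein also called densin. Within tables, r of GRM5 with ASTN1 lay between 0.911 and 0.969. LRRC7 fell in F1 males with GRM5, by 0.28 on the log2 scale (FDR = 0.0118), whereas ASTN1 had a log2 fold change of -0.22 there and was not called (FDR = 0.204). For GRM3 they were NACC1 (r = 0.843, rho = 0.847), a transcriptional regulator, and BSG (r = 0.840, rho = 0.843), a membrane glycoprotein, and neither was called in any table. The points share library, depth and scaling. Treatment differences were left in here too, so a fall of LRRC7 together with GRM5 is no separate finding.

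Genes that work with these receptors were taken from a list of 81 symbols in 5 roles, written from general knowledge. In F1 females 25 of 73 tested were called, 17 higher and 8 lower, or 34.2% against 16.5% of all genes, with a median log2 fold change of 0.09 against -0.03. In F1 males 8 of 73 were called, 2 higher and 6 lower, or 11% against 9.22% of all genes, with a median of -0.06 against 0.00. In F3 females 1 of 71 was called, against 1.34% of all genes, and in F2 females 0 of 73, against 0.278%. At an unadjusted p under 0.05 by the quasi-likelihood test there were 29 of 71 partner genes in F3 females, against 1973 of 11420 genes tested. In F2 females there were 12 of 73, against 1789 of 11132. The likelihood ratio test called 13 partner genes in F3 females and 5 in F2 females, against 616 and 534 among all genes. DESeq2 called 15 and 6, against 632 and 471. Without F1 female controls 1 and 4, 26 of 73 were called in F1 females, 21 higher and 5 lower, where 1707 of all genes were called.

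Among genes of glutamate supply and clearance, 3 of 10 rose in F1 females and 1 of 10 fell in F1 males. SLC38A2, a glutamine transporter gene, rose in F1 females by 0.35 (FDR = 0.0333). SLC38A1, another glutamine transporter gene, fell in F1 males by 0.18 on the log2 scale (FDR = 0.0348).

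NAAG, N-acetylaspartylglutamate, is a peptide that acts on mGlu3. RIMKLA, a NAAG synthetase gene, rose in F1 females from 86.4 ± 8.70 to 129 ± 13.4 CPM (SD, n = 4 each), with a log2 fold change of 0.58 (FDR = 0.00721). In F1 males, 2 of 5 genes of NAAG metabolism rose. These were FOLH1, the peptidase that cleaves NAAG, by 0.66 (FDR = 0.00825), and ASPA, which breaks down N-acetylaspartate in oligodendrocytes, by 1.07 (FDR = 0.0147). Both rose in the table in which the oligodendrocyte markers rose, and the part of these cells was not tested.

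Among G protein and effector genes, 9 of 28 rose and 3 fell in F1 females, 1 of 28 rose in F3 females and 1 of 29 fell in F1 males. KCNJ3, a subunit of the potassium channels opened by Gi/o-coupled receptors, rose in F1 females from 48.5 ± 7.27 to 102 ± 15.8 CPM (SD, n = 4 each), with a log2 fold change of 1.07 (FDR = 0.00390). Its log2 fold change was 0.68 in F3 females, where it was not called (FDR = 0.115). GNG3, a G protein gamma subunit gene, rose in F1 females by 0.46 (FDR = 0.00495). ADCY2, an adenylyl cyclase gene and the 1 call of F3 females, named after its value had been seen, rose there by 0.41 (FDR = 0.0216) and in F1 females by 0.68 (FDR = 0.00721). In F1 females 5 of 6 neuronal markers rose, with a median log2 fold change of 0.45, and the neuronal sums of F1 and of F3 females did not overlap between control and sGC animals. Their part in the changes of the partner genes was not tested.

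**Figure D5:**
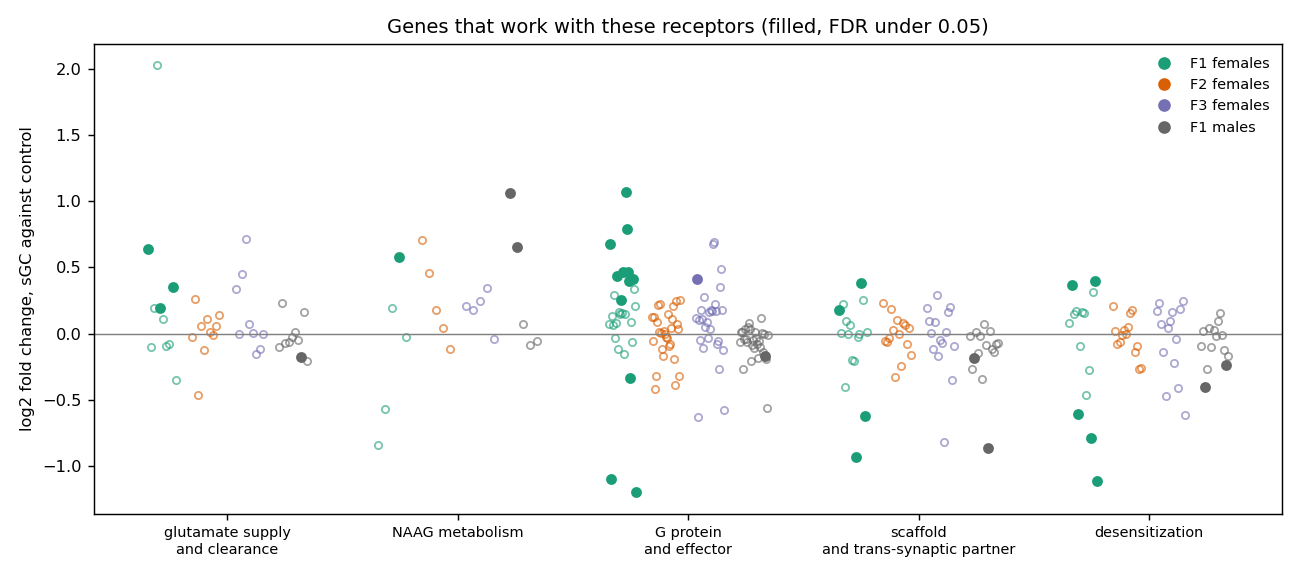
Log2 fold change of sGC against control animals (vertical axis) for each tested gene of the 5 partner roles (horizontal axis), coloured by table, with filled points for an FDR under 0.05. Filled points are most frequent in F1 females, 25 of 73 genes, and lie on both sides of 0, while F2 females have 0 of 73.

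Of scaffold and trans-synaptic partner genes, 2 of 16 rose and 2 fell in F1 females and 2 of 15 fell in F1 males. NECAB2, a calcium-binding protein that binds mGlu5, fell from 81.7 ± 26.8 to 42.9 ± 9.61 CPM in F1 females (SD, n = 4 each), with a log2 fold change of -0.93 (FDR = 0.0353). In F1 males it fell from 37.0 ± 8.94 (SD, n = 5) to 20.4 ± 7.46 CPM (SD, n = 6), with a log2 fold change of -0.86 (FDR = 0.0236). In F2 and F3 females its log2 fold changes were -0.25 (FDR = 0.484) and -0.82 (FDR = 0.0532), not called. SHANK3, a scaffold of the postsynaptic density, fell in F1 females by 0.62 on the log2 scale (FDR = 0.0432), and ELFN2, a synaptic adhesion protein that binds group III receptors, fell in F1 males by 0.19 (FDR = 0.0396). NECAB2 and SHANK3 fell in the table in which the striatal markers fell, and the part of striatal cells was not tested.

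Of desensitization genes, 2 of 14 rose and 3 fell in F1 females and 2 of 14 fell in F1 males. RGS7, which speeds the switching-off of Gi/o proteins, rose in F1 females from 69.4 ± 5.98 to 91.5 ± 7.47 CPM (SD, n = 4 each), with a log2 fold change of 0.40 (FDR = 0.0162). It fell in F1 males from 107 ± 3.50 (SD, n = 5) to 91.2 ± 2.42 CPM (SD, n = 6), with a log2 fold change of -0.23 (FDR = 0.00318), and no sGC male reached the level of a control. GRK2, a receptor kinase gene, rose in F1 females by 0.37 (FDR = 0.00432). RGS2, a regulator of Gq proteins, fell there by 0.79 on the log2 scale (FDR = 0.00432).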

How the data were processed

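RNA-seq libraries of 35 animals had been sequenced by the authors. Per the file headers, the authors deposited raw read counts (whole numbers, not normalized) by gene symbol, in 1 table for each of F1, F2 and F3 females and F1 males. The submitters' processing notes name TopHat2 and edgeR, without versions. The read counter, genome build, annotation and any filter on the listed genes are not given in the sources used here. The tables also hold the authors' own log2 fold changes, mean log2 CPM, likelihood ratio statistics, p-values and FDR, which were not used.

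Columns were assigned to animals by treatment and replicate number in the labels. The packages were edgeR 4.0.16 and DESeq2 1.42.0, run under R 4.3.3. The filter on counts was filterByExpr (minimum count 10, minimum total count 15), and genes that passed were scaled by TMM and compared within each table by edgeR's quasi-likelihood test, with Benjamini-Hochberg adjustment over all genes tested. The study used edgeR's likelihood ratio test, which takes the dispersion as known and was tried as another setting. Differences between tables were tested as interactions. Log2 CPM for correlations used a prior count of 2. The paper states that the females analysed came from different litters. Whether F1 males shared a litter with each other or with F1 females is not given in the sources used here. Litter was not used in any fit, so littermates, if any, were treated as independent animals. The p-values measure the spread between these animals.

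The receptor genes, partner genes and cell type marker lists were chosen with earlier results of these data known. Partner genes were named by their smallest FDR, up to 3 called genes per role, and similar genes as the 2 of highest r per receptor gene, and some genes that this rule names are not reported here. Among all pairs of libraries, 0 were identical. Replicate numbers did not pair animals. Their deviations correlated over genes with r from -0.332 to 0.338, over 0.1 in 5 of 17 pairs. Other settings were DESeq2 and the likelihood ratio test, normalization by RLE or by the upper quartile, counts without a filter or kept at CPM above 1, the replicate number as a block, 1 joint fit of the 8 conditions, and fits that each left out 1 animal. The omission of F1 female controls 1 and 4 was added after seeing the data. The code was tested on simulated counts. Whether reads are shared between paralogs cannot be read from the tables, and no gene sequences were used here.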

Additional observations from a re-analysis of the deposited data

Results flagged for a closer look

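Of 24 groups of 4 to 6 animals examined for a value apart (3 receptor genes in 8 groups), 1 held such a value, where chance gives about 1 in 20 groups. GRM2 in F3 female control animal 3 was at 7.10 CPM, with the nearest other control at 16.1 and the farthest at 17.5 CPM (a gap of 0.867 of the range). The log2 fold change of GRM2 in F3 females was 0.69 with this animal and 0.47 without it, and was called in neither case.

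The response to sGC differed between tables in 3 cases by edgeR's quasi-likelihood test of the interaction. For GRM2 the log2 fold change of F1 males minus that of F1 females was -1.38 (FDR = 0.00574). The same difference was -0.60 for GRM5 (FDR = 0.0490). For GRM2 the log2 fold change of F2 minus that of F1 females was -1.32 (FDR = 0.0358). F1 females enter all 3 differences, so that they are not independent of each other.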

How the results depend on the processing

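Among the receptor genes, the calls in F1 females went from 0 to 1 with the likelihood ratio test, DESeq2, the single fit of all conditions and the omission of controls 1 and 4, and in F1 males from 2 to 1 with the replicate block and the single fit. The differing responses between F1 females and F1 males went from 2 to 1 with upper-quartile normalization, and those between F1 and F3 females from 0 to 1 without F1 controls 1 and 4. The cause was not tested. GRM2 in F1 males had a log2 fold change of -0.42 (FDR = 0.0648) with the replicate block, which changed no other call of a receptor gene, and 2 of 17 controls correlated best with the sGC animal of their number. Leaving out 1 animal gave 0 to 1 call in F1 females, 0 to 2 in F1 males, and 1 to 2 and 0 to 1 differing responses of F1 females against F1 males and F2 females.

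GRM3 reversed where it was near 0. It was -0.033 in F1 females and -0.014 in F3 females with upper-quartile normalization, and the F1 to F3 difference of -0.01 became 0.0022 with DESeq2, 0.0021 with RLE, 0.020 with upper-quartile normalization, 0.014 with the single fit and 0.0086 without F1 controls 1 and 4. With 1 animal left out, GRM3 ran from -0.024 to 0.041 in F1 females and from -0.050 to 0.049 in F3 females, its F1 to F3 difference from -0.075 to 0.041, and the F2 to F3 difference of GRM5 from -0.17 to 0.13.

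Over all genes, 1864 were called in F1 females (1038 higher), against 1891 with upper-quartile normalization (803 higher), 1080 with the replicate block and 3327 with the single fit. In F2 females 31 were called, against 534 with the likelihood ratio test, 471 with DESeq2, 70 with upper-quartile normalization, 76 with no filter, 53 with the block and 10 with the single fit. In F3 females 153 were called, against 616, 632, 67 and 396 with the likelihood ratio test, DESeq2, the block and the single fit. The differing responses of F1 and F2 females numbered 1536, against 2389 with the single fit. Those of F1 and F3 females numbered 11, against 114, 202, 18, 0, 221 and 369 with the likelihood ratio test, DESeq2, upper-quartile normalization, the block, the single fit and the omission of F1 controls 1 and 4. Those of F2 and F3 females numbered 2, against 93 and 126 with the likelihood ratio test and DESeq2, 4 with RLE and with upper-quartile normalization, 9 with the block and 41 with the single fit. With 1 animal left out, calls ran from 613 to 2115 in F1 females, 0 to 487 in F2 females, 20 to 598 in F3 females and 667 to 1613 in F1 males, and differing responses from 3007 to 3623, 808 to 1906, 1 to 97 and 0 to 44. With 4 animals a group, intervals of GRM2 in F1 and F3 females span more than 1 log2 unit.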
